A study of Mus musculus with 6 samples.

Results

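Regions called preferentially with mutant CTCF were described from CTCF ChIP-seq of mouse embryonic stem cells (mESCs), pluripotent cells of the early embryo. The comparison asks whether loss of an O-GlcNAc site of CTCF alters where the protein binds. All cells came from a line grown in serum with LIF whose endogenous CTCF carries EGFP and an auxin-inducible degron, and the study degraded that protein with auxin. WT_CTCF cells also carried an introduced wild-type CTCF. MUT_CTCF cells carried an introduced CTCF with alanine in place of threonine T668, which cannot take O-GlcNAc there. Each genotype had 2 CTCF ChIP libraries, which the study calls biological replicates, and 1 input library that was not analysed here. Cells of a genotype were picked as a clone, chosen for a CTCF level similar to the endogenous one, so genotype and clone cannot be told apart in these libraries. No expression was measured in them, and the cell type was taken from the labels. Of 57644 regions on chromosomes 1 to 19 and X, made by the authors by joining the peaks of the 4 libraries, 661 (1.15%) were members. They were selected on the calls themselves: a region had to overlap, by at least 1 bp, a peak in more MUT_CTCF than WT_CTCF lists, or in exactly 1 list of each genotype. The values that follow for calls, scores and widths are therefore a description with no test.

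CTCF recognises a conserved core motif in DNA with its zinc fingers and, with the cohesin ring complex, sets the ends of chromatin loops and insulates genes from enhancers of neighbouring domains. O-GlcNAcylation, the addition of a single sugar to serine or threonine, is a reversible modification of nuclear proteins. Short interspersed elements of rodents, retrotransposed sequences present in many copies, are known to have carried CTCF motifs to many places in the mouse genome. Some CTCF sites of the mouse therefore lie in repeated sequence.

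The members held 4 calling classes. Both MUT_CTCF lists and no WT_CTCF list called 16 regions (0.0278% of all regions), and 1 MUT_CTCF list alone called 161 (0.279%). Both MUT_CTCF lists and 1 WT_CTCF list called 70 (0.121%). The class with 1 list of each genotype, which is not an excess of MUT_CTCF calls but a tie, held 414 regions (0.718%) and was the majority of the members.

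The DNA of these sites is shown first, read from the mouse build NCBIM37 (mm9) 5′ to 3′ with the core motif in capitals and 14 bases to either side. The first set holds 4 of the 5 regions of both MUT_CTCF lists alone that had the motif with at most 1 mismatch. They lay in an intron of Wnk2 (chr13:49154076-49154116, + strand), in Sema4f (chr6:82869657-82869697, - strand), in the promoter of Bsnd (chr4:106166429-106166469, - strand) and 13822 bp from Col22a1 (chr15:71878744-71878784, + strand). The region near Col22a1 was multi-copy sequence, with a median of 2 genomic copies.
Wnk2: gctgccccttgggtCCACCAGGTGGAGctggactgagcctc
Sema4f: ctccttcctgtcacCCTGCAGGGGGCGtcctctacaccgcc
Bsnd: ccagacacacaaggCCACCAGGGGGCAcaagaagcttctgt
Col22a1: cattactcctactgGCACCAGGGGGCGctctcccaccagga

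The second set shows a pair of words that recurred in the other classes, which differ in their last base. Its regions lay in Airn at the promoter of Igf2r (chr17:12965119-12965159, - strand) and at the promoter of Gm15226 (chrX:163061881-163061921, + strand), each called in 1 MUT_CTCF list alone, and near Gm11731 (chr11:116912268-116912308, + strand), in Mbnl2 (chr14:120789945-120789985, - strand), at A830010M20Rik (chr5:107923961-107924001, - strand) and in Polr1a (chr6:71896108-71896148, + strand), each called in both MUT_CTCF lists and 1 WT_CTCF list.
Airn: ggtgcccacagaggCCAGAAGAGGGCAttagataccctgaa
Gm15226: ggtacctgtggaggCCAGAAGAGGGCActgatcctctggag
Gm11731: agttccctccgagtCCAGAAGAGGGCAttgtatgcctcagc
Mbnl2: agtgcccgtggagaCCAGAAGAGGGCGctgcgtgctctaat
A830010M20Rik: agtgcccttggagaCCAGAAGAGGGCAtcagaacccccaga
Polr1a: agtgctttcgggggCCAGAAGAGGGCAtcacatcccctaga

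The third set shows regions with no motif match of at most 1 mismatch, as 101 bases around the summit of the MUT_CTCF 1 peak, whose base is in capitals. Both MUT_CTCF lists alone held 3 multi-copy regions, and the one with the highest mean score is shown, in 2610005L07Rik (chr8:19953379-19953479). Also shown is the region in the first coding exon of Ctcf (chr8:108188234-108188334). The Ctcf region was chosen after its values were seen.
2610005L07Rik: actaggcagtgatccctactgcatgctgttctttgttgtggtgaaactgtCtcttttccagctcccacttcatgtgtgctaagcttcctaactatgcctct
Ctcf: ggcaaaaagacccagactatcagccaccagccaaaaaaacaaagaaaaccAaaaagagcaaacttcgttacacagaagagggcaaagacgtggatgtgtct

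The mirror classes, with the genotypes exchanged, were far larger. Both WT_CTCF lists and no MUT_CTCF list called 11266 regions (19.5%), 1 WT_CTCF list alone called 10819 (18.8%), and both WT_CTCF lists with 1 MUT_CTCF list called 4586 (7.96%). The WT_CTCF lists were also the longer ones, with 49987 and 54001 peaks against 33939 and 32712 in the MUT_CTCF lists. Of 177 regions with a MUT_CTCF peak and no WT_CTCF peak, 16 were called in both MUT_CTCF libraries, 9.04% (95% exact Clopper-Pearson interval 5.26 to 14.3). Of 22085 regions with a WT_CTCF peak and no MUT_CTCF peak, 11266 were called in both WT_CTCF libraries, 51.0% (interval 50.4 to 51.7). Such intervals cover counting error over regions only, treat regions as independent and take no account of clone or library. They are no test of a difference between the genotypes.

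The libraries contributed unequally. MUT_CTCF 1 alone called 107 of the 161 regions of a single MUT_CTCF list and MUT_CTCF 2 alone called 54. In the class with 1 list of each genotype, the pair of WT_CTCF 2 and MUT_CTCF 1 gave 176 regions, WT_CTCF 2 and MUT_CTCF 2 gave 102, WT_CTCF 1 and MUT_CTCF 1 gave 93, and WT_CTCF 1 and MUT_CTCF 2 gave 43. The longer list of each genotype, WT_CTCF 2 and MUT_CTCF 1, thus made the most frequent pair. Among the 70 regions of both MUT_CTCF lists and 1 WT_CTCF list, the WT_CTCF peak was in replicate 2 in 49 and in replicate 1 in 21.

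**Figure D1:**
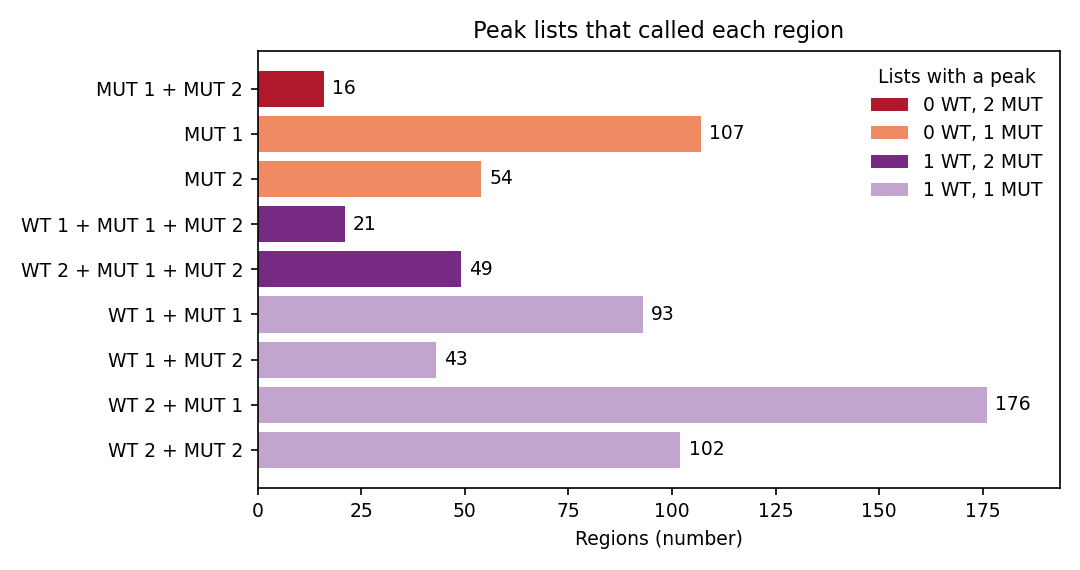
Number of member regions (horizontal axis) for each combination of peak lists that called them (vertical axis), coloured by calling class. The pair of WT_CTCF 2 and MUT_CTCF 1 called 176 regions, while both MUT_CTCF lists alone called 16.

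Peaks at members had low scores within their own lists, as had those of the regions of 1 WT_CTCF list alone. Scores are printed as the peak caller wrote them, with a definition not given in the sources used here, and the lowest in each list was 13. Members with a MUT_CTCF 1 peak had a median score of 46.5 (15 to 152), against a median of 226 over the whole list, and 369 of 462 lay under the 10th percentile of that list. Members with a MUT_CTCF 2 peak had a median of 47 (15 to 263) against 235 over the list, and 217 of 285 lay under its 10th percentile. Only 1 MUT_CTCF peak at a member, in Zfp664, lay above the median of its list. The WT_CTCF peaks at members were less extreme: their median scores were 70 in replicate 1 and 79 in replicate 2, at the 15.9th and the 20.8th percentile. Regions of 1 WT_CTCF list alone, the mirror of a member class, had a median score of 47 in either library, at the 6.97th percentile in WT_CTCF 1 and the 9.15th in WT_CTCF 2.

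The median MUT_CTCF scores of the member classes lay between 39 and 57. Regions of 1 MUT_CTCF list alone had a median score of 39 in either library, at the 3.27th percentile in MUT_CTCF 1 and the 2.36th in MUT_CTCF 2. Regions of both MUT_CTCF lists alone had medians of 45 and 57, at the 5.25th and 7.54th percentile. Regions of both MUT_CTCF lists and 1 WT_CTCF list had a median of 57 in each, at the 9.24th and 7.54th percentile. Regions of 1 list of each genotype had a median MUT_CTCF score of 47 in either library, at percentiles of 4.80 and 4.61. Just outside the rule, the regions of both WT_CTCF lists and 1 MUT_CTCF list also had a median MUT_CTCF score of 57 in each library, and WT_CTCF medians of 150 and 164. Regions called in all 4 lists had MUT_CTCF medians of 263 and 250.

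**Figure D2:**
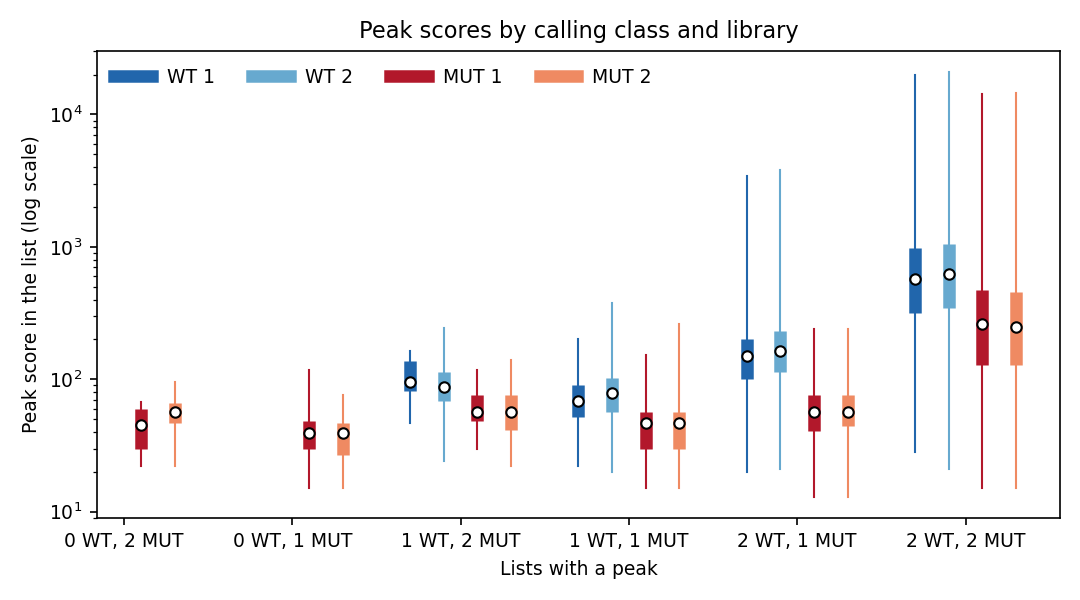
Peak score (vertical axis, log scale) by calling class (horizontal axis) and library (colour). Circles are medians, thick bars span the quartiles and thin lines the lowest to the highest score. In the 4 member classes the MUT_CTCF medians lie between 39 and 57, against 263 and 250 for regions called in all 4 lists.

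The authors' mean, a spike-in scaled read count averaged over all 4 libraries, was also low. It was 18 to 138 in members, with a median of 45.75, against a median of 95.25 over all regions and 206.5 over those called in all 4 lists. It averages both genotypes, so it gives no level per genotype. Of the 661 members, 411 had a mean from 25 to 50 and 233 a mean from 50 to 100. No member was found among the 15995 regions with a mean of 200 or more, and 4 among the 12015 with a mean from 100 to 200. The region with the highest mean, 138, lay in Azi1 and AL807824.1 in the class with 1 list of each genotype, and was named after its value was seen. Members were narrow, with a median width of 247 bp against 207 bp for regions of 1 WT_CTCF list alone, 329 bp for both WT_CTCF lists alone and 591 bp for regions called in all 4 lists.

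Where both genotypes had a peak, the WT_CTCF score was usually the higher. The median ratio of the mean MUT_CTCF score to the WT_CTCF score was 0.657 in the 70 regions of both MUT_CTCF lists and 1 WT_CTCF list (0.228 to 2.19), and MUT_CTCF was higher in 8 of them. In the 414 regions with 1 list of each genotype it was 0.6 (0.12 to 3.30), and MUT_CTCF was higher in 67. The same ratio in regions called in all 4 lists was 0.442, with MUT_CTCF higher in 209 of 30312. By library pair the median ratio was 0.6 for WT_CTCF 1 and MUT_CTCF 1, 0.691 for WT_CTCF 1 and MUT_CTCF 2, 0.572 for WT_CTCF 2 and MUT_CTCF 1 and 0.605 for WT_CTCF 2 and MUT_CTCF 2. In all, 484 of 661 members had peaks of both genotypes, and MUT_CTCF had the higher score in 75, with 5 ties. The paper reports the other direction, a global increase in binding of the mutant CTCF. It used spike-in scaled read counts and immunoblots of chromatin-bound CTCF. It also reports increased chromatin accessibility at the enhanced peaks, and the same outcome in additional clones of each genotype. Calls and caller scores per list are an unlike measure, and they give no level of binding per genotype.

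**Figure D3:**
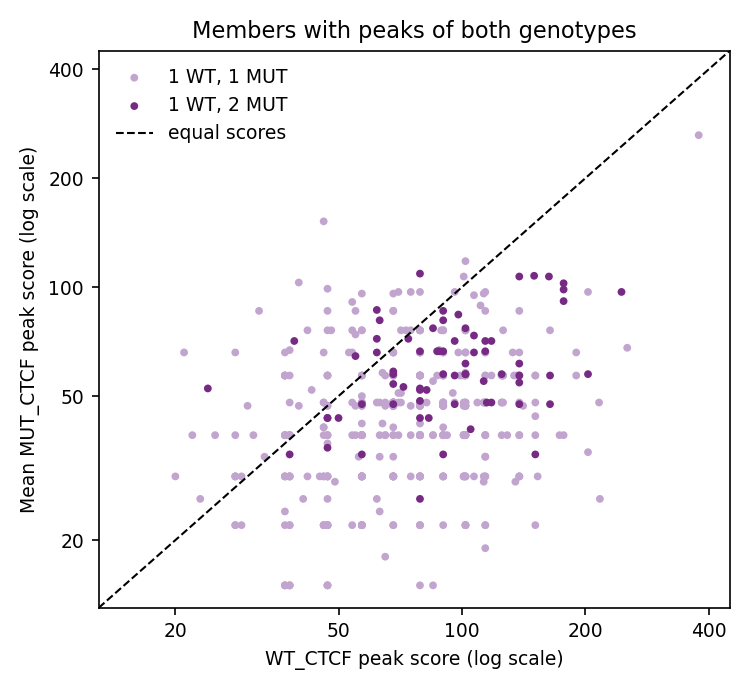
WT_CTCF peak score (horizontal axis, log scale) against the mean MUT_CTCF peak score (vertical axis, log scale) for the 484 members with peaks of both genotypes, coloured by class. The dashed line marks equal scores and 75 points lie above it.

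Where both genotypes had a peak, the summits mostly lay close together. The WT_CTCF and MUT_CTCF summits were a median of 17 bp apart over 554 pairs, and 87.9% were within 50 bp. In regions called in all 4 lists the median was 11 bp and 97.03% were within 50 bp. Between the MUT_CTCF libraries, the summits of the 16 regions of both lists alone were a median of 17 bp apart, and 75% were within 50 bp. For the 177 members with no WT_CTCF peak, the nearest WT_CTCF peak was 99 to 312917 bp away, with a median of 7878 bp, and was within 1000 bp in 20 of them.

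The 8 regions with the highest mean score among those of both MUT_CTCF lists alone touched or neighboured genes of varied roles. The highest lay in an intron of Wnk2 (ENSMUSG00000037989.9), a kinase of the WNK family that regulates ion transport, at chr13:49153927-49154187, with scores of 66 in MUT_CTCF 1 and 96 in MUT_CTCF 2 and an authors' mean of 63.5. A region 144 bp from Cbx2 (ENSMUSG00000025577.7), which encodes a chromodomain subunit of a Polycomb repressive complex, scored 67 in both libraries and had the highest authors' mean of the class, 113.5, at chr11:118883904-118884132. The nearest WT_CTCF peak was 11205 bp away.

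A region over a coding exon of Itgal (ENSMUSG00000030830.11), the alpha L integrin of leukocytes, scored 57 and 76 (chr7:134465593-134465881). The promoter and 5′ UTR of Il11ra1 (ENSMUSG00000073889.4), an interleukin receptor chain, held a region that scored 48 and 76 (chr4:41707284-41707550). A region in an intron of Usp34 (ENSMUSG00000056342.9), a ubiquitin protease, scored 66 and 57 (chr11:23277212-23277531). The region at Sema4f (ENSMUSG00000000627.9), a semaphorin, touched coding sequence and the promoter and scored 57 and 47 (chr6:82869512-82869853). All of these were single-copy sequence, and the authors' means were 55.75 to 70.75.

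A region 22448 bp from Gm14454 scored 42 and 66, and the region in 2610005L07Rik shown above scored 67 and 58. Other regions of this class lay at the promoters of Bsnd, which encodes a subunit of kidney chloride channels, of Gm11985 and of Gm13036, near Col22a1 and Tpra1, in a second part of 2610005L07Rik, and in Ctcf. Over the class, scores were 22 to 67 in MUT_CTCF 1 and 22 to 96 in MUT_CTCF 2, and 7 of 16 touched a promoter, the 3000 bp before a transcription start, counting the Ctcf region, which lay at the start of AC127419.1. That share of 43.8% (interval 19.8 to 70.1) stood beside 15.7% of all regions. Counting protein-coding genes alone, it was 4 of 16 (interval 7.27 to 52.4) beside 12.99% of all regions. The motif was found in 5 of the 16.

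Among regions of 1 MUT_CTCF list alone, the highest scores in MUT_CTCF 1 were 118, at chr5:117281974-117282168 and 10079 bp from 4930569F06Rik, 96, at the promoter of Uqcrc2 (ENSMUSG00000030884.5), a core subunit of mitochondrial complex III (chr7:127778426-127778688), and 76, in the multi-copy group at 2610005L07Rik. The Uqcrc2 region began 2 bp from the gene and had an authors' mean of 96, the highest of its class. In MUT_CTCF 2 the 3 highest tied at 76, among them a region 5002 bp from Tmem98 (chr11:80618454-80618675) and a region in an intron of Myo18b, an unconventional myosin of muscle (chr5:113169808-113169985). The median authors' mean of the class was 36, against 25 for the regions of 1 WT_CTCF list alone.

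Among regions of both MUT_CTCF lists and 1 WT_CTCF list, Ctif (chr18:75767478-75767801), a translation initiation factor gene, had the largest score ratio, with 24 in WT_CTCF 2 against 39 and 66 in MUT_CTCF. Srgap1, a regulator of cell migration, followed with 39 against 76 and 66 (chr10:121270616-121270848). A region 7267 bp from Gm11731 scored 62 in WT_CTCF 1 against 97 and 76. Osbp2, an oxysterol-binding protein gene, scored 79 in WT_CTCF 2 against 114 and 104 (chr11:3649913-3650222), and Polr1a, the largest subunit of RNA polymerase I, scored 63 against 66 and 96. In each of these 5, both MUT_CTCF scores were above the WT_CTCF score, and the other WT_CTCF library had no peak.

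The 3 with the largest authors' mean did not share that order. Sgk1, a kinase induced by glucocorticoids, had a mean of 98.5, with 98 in WT_CTCF 2 against 64 and 104 (chr10:21712755-21713198). The promoter region of A830010M20Rik had a mean of 87.75, with 245 against 118 and 76. A region 743 bp from Rfx8 had a mean of 87, with 83 against 48 and 39 (chr1:39721045-39721408).

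In the class with 1 list of each genotype, the highest score of all members was at an intron of Zfp664, a zinc finger gene (chr5:125380357-125380515), with 378 in WT_CTCF 2 and 263 in MUT_CTCF 2. Among the 7 other named regions of this class the WT_CTCF score was the higher in each, from 113 against 96 at a region 21762 bp from SNORA40 to 253 against 68 in Lrrc68. These 7 also included Mboat2 (203 against 97), a region 39008 bp from Tcf21 (138 against 86), Pigk (136 against 57), a region 60478 bp from Mocs2 (216 against 48) and a region 125463 bp from Olfr1505 (190 against 66). The extreme ratios of this class were named after they were seen: Pacsin1 scored 46 in WT_CTCF 1 against 152 in MUT_CTCF 1, and Dfnb59 scored 217 in WT_CTCF 2 against 26 in MUT_CTCF 2.

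The core motif, with at most 1 mismatch on either strand, was found in 308 of 661 members, 46.6% (interval 42.7 to 50.5), against 60.6% of all regions and 70.3% of those called in all 4 lists. Intervals of equal width 5000 bp to either side of the members held it in 2.27%. By class the share was 31.2% (interval 11.02 to 58.7) for both MUT_CTCF lists alone, 37.3% (29.8 to 45.2) for 1 MUT_CTCF list alone, 35 of 70 (37.8 to 62.2) for both MUT_CTCF lists and 1 WT_CTCF list, and 50.2% (45.3 to 55.2) for 1 list of each. In the mirror classes it was 54.3% for both WT_CTCF lists alone, 40.8% for 1 WT_CTCF list alone and 60.3% for both WT_CTCF lists and 1 MUT_CTCF list. Regions of all 4 lists were wider, and a wider region has more places for a match. The intervals of equal width beside those regions held it in 5.90%. An exact match was present in 5.60% of members and in 20.2% of regions called in all 4 lists.

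In most members with a motif the match lay near the summit. Over all of them, the MUT_CTCF summits were a median of 13 bp from the motif centre and 90.8% of 348 were within 50 bp. The WT_CTCF summits of members were a median of 14 bp away, with 90.5% of 243 within 50 bp. In regions called in all 4 lists, 92.8% of MUT_CTCF summits were within 50 bp, and in regions of 1 WT_CTCF list alone 86.9% of WT_CTCF summits were. For both MUT_CTCF lists alone it was 8 of 10 summits. The match near Col22a1 lay 147 and 138 bp from the summits of its peaks. Matches were sought inside the regions, and members were narrow, which leaves little room for a match far from a summit. A motif match is a description of the sequence and not a measured binding site.

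A pair of words made up much of the matches. CCAGAAGAGGGCA and CCAGAAGAGGGCG, each 1 mismatch from the core motif, were the most frequent words over all regions, and were picked out after the matches were seen. They were the best match in 127 members, which is 41.2% (interval 35.7 to 47.0) of the members with a motif and 19.2% of all members. In regions called in all 4 lists they made up 24.0% of the matches, and in all regions 36.6%. The share was 58.1% for both WT_CTCF lists alone and 61.6% for 1 WT_CTCF list alone, above the member classes, in which it was 24 of 60 matches for 1 MUT_CTCF list alone, 42.9% for both MUT_CTCF lists and 1 WT_CTCF list and 42.3% for 1 list of each. None of the 5 matches of both MUT_CTCF lists alone was one of these words, a count whose interval reaches 52.2%.

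The words came with shared flanks. The genome holds 48540 copies of the pair on chromosomes 1 to 19 and X, and 26.3% of these copies were the best match of a region. At each of the 28 flanking bases the most frequent base over all regions with these words was taken. Members with the words matched it at a median of 17 bases, and members with another word at 8. Over all regions these medians were 18 and 8. With the words, the median was 22 for both WT_CTCF lists alone and 23 for 1 WT_CTCF list alone. It was 18 for both WT_CTCF lists and 1 MUT_CTCF list, and 14 for regions called in every list. The bases were taken from regions with the words, so a lower match with another word is partly built in. The likeness of the flanks can be seen above between Airn, A830010M20Rik and Polr1a. Repeat annotation was not used here, so the words were not assigned to an element.

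**Figure D4:**
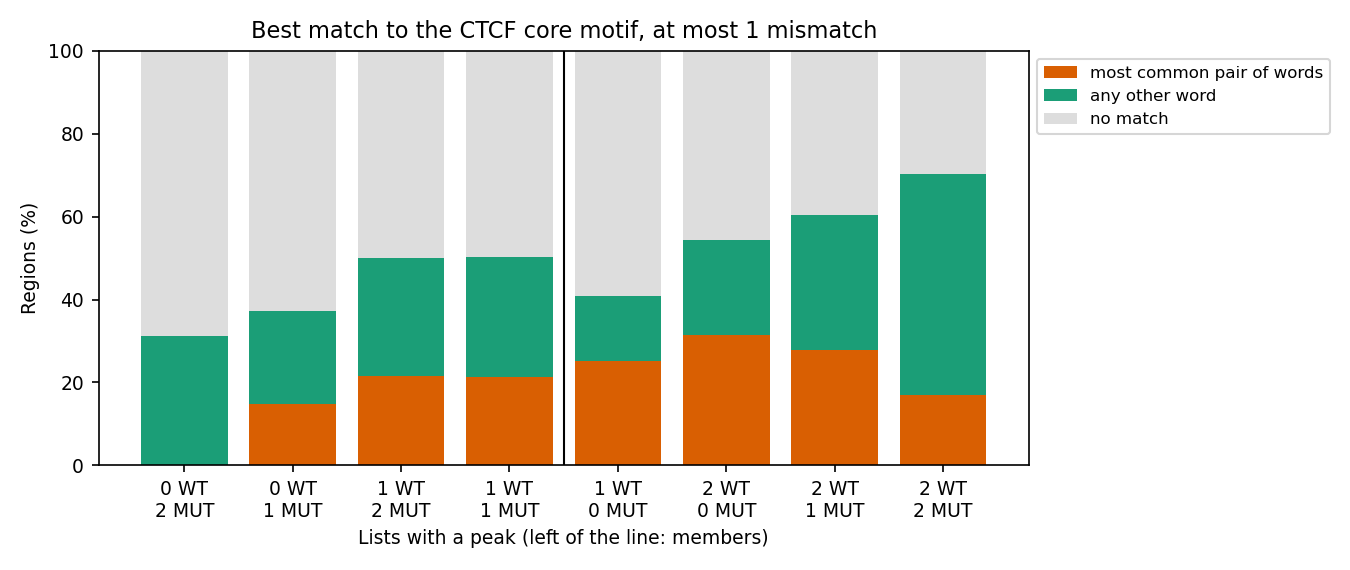
Share of regions (vertical axis, %) whose best motif match was CCAGAAGAGGGCA or CCAGAAGAGGGCG (orange), was any other word (green) or had more than 1 mismatch (grey), by calling class (horizontal axis, members left of the line). The motif share runs from 31.2% to 50.2% in member classes and reaches 70.3% in regions called in all 4 lists.

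In 54 members (8.17%, interval 6.20 to 10.5) the sequence was multi-copy, here a median of at least 2 genomic copies over the 31-base words sampled every 10 bp. Of all regions 3459 of 57644 were multi-copy. The share was 1.20% of regions called in all 4 lists and 16.4% of those of 1 WT_CTCF list alone. It was 10.2% of the members with no WT_CTCF peak. Reads that align to several places had been removed by the authors, so levels in such sequence are uncertain. The median copy number of the multi-copy members was 6, and 7 members had a median of at least 100 copies.

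Of the 18 multi-copy regions with no WT_CTCF peak, 8 lay together in 133.671 kb of chromosome 8 at 2610005L07Rik (chr8:19884050-20017720), a group found after the values were seen. No other group of such members within 100 kb of each other had more than 2. Their sequence had 2 to 7 copies, none had the motif, and their authors' means were 28 to 67.75. In the same stretch, 6 regions called in 1 WT_CTCF list alone had means of 24 to 74.75, overlapping those of the members. Their 4 to 6 copies lay within the range of the members. Also there, 3 regions called in all 4 lists had means of 1183.25 to 2722.75. Without this group, 5.92% of the members with no WT_CTCF peak were multi-copy.

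**Figure D5:**
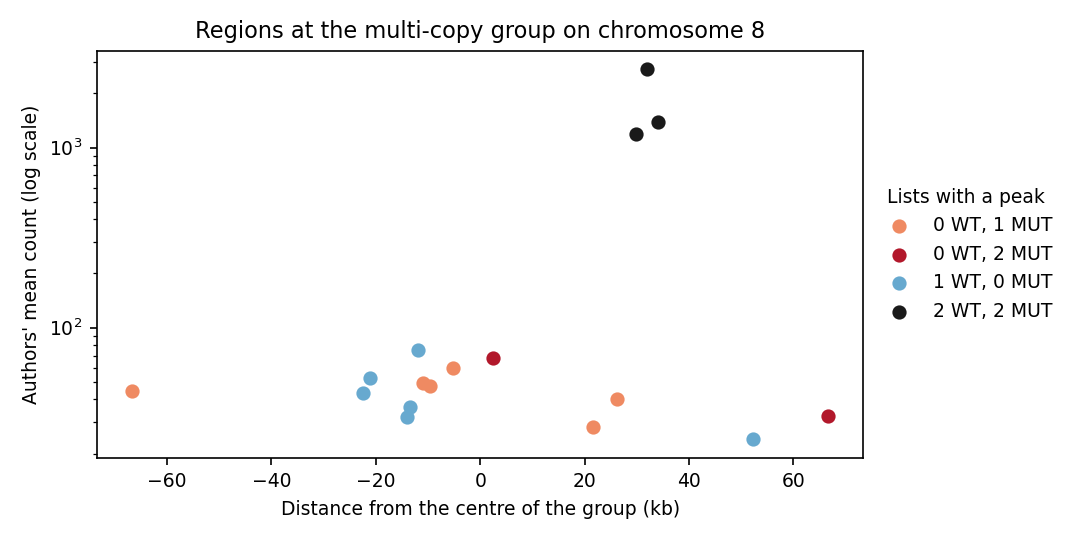
Authors' mean count (vertical axis, log scale) of the 17 regions in the multi-copy group on chromosome 8, against the distance from the centre of the group (horizontal axis, kb), coloured by the lists that called them. The 8 members and the 6 regions of WT_CTCF lists alone together span 24 to 74.75, below the 3 regions called in all 4 lists.

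Chromosome 8 held 26 of the 177 members with no WT_CTCF peak, which is 0.758 per 100 regions (interval 0.495 to 1.11), and chromosome 11 held 26 as well, 0.496 per 100 regions (interval 0.324 to 0.725). Over all chromosomes the value was 0.307. Of the 26 on chromosome 8, 8 were the group at 2610005L07Rik, and without the 17 regions of that stretch the value was 0.527 (interval 0.313 to 0.832). Over all members, the share of regions was 1.40% on chromosome 8 and 1.30% on chromosome 11, against 1.49% on chromosome 12. The median log2 ratio of the MUT_CTCF to the WT_CTCF score in regions called in all 4 lists was -1.13 on chromosome 8 and -1.15 on chromosome 11, and lay between -1.30 and -1.13 over the 20 chromosomes. Chromosome 12 also had -1.13, with 0.145 members with no WT_CTCF peak per 100 regions. Chromosome 15 had -1.15 with 0.408 per 100 regions, and chromosome X had -1.30 with 0.439. Whether the ratio and the count go together over the chromosomes was not tested. The chromosomes were picked after the counts were seen, and the part of a chromosome's copy number in the counts was not tested.

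The Ctcf gene (ENSMUSG00000005698.9) itself held a region of both MUT_CTCF lists alone. It lay at chr8:108187828-108188306, inside the first coding exon of the gene (coding part chr8:108187663-108188443), with an authors' mean of 84. The scores were 26 in MUT_CTCF 1 and 22 in MUT_CTCF 2, which are percentiles of 0.741 and 0.274 of their lists. The peaks were 416 and 187 bp wide, shared 124 bp, and their summits were 393 bp apart, against 11 and 18 bp at the neighbouring regions of the gene called in all 4 lists. The best match within the region had 3 mismatches, and within 100 bp of the summits 2.

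Of the 4 regions in the Ctcf gene or up to 3138 bp past its end, this was the one with MUT_CTCF peaks alone. The region at the start of the gene (chr8:108160479-108160876) was called in both WT_CTCF lists alone, with scores of 239 and 265 and a mean of 150.5. The region 24474 bp into the gene scored 147 and 205 in WT_CTCF and 141 and 99 in MUT_CTCF. Both genotypes carried an introduced CTCF coding sequence, as given above, and its part in these peaks was not tested. Regions that lay wholly inside a coding exon were rare: 4 of 661 members and 182 of all regions (0.316%). The other 3 members were in Adamts5, Ache and Cspg4.

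Members touched promoters in 79 cases, 11.95% (interval 9.58 to 14.7), against 15.7% of all regions. They lay in a gene without touching an exon in 43.6% and touched neither gene nor promoter in 41.5%, against 38.8% and 41.8% of all regions. A 5′ UTR was touched by 1.66% of members and 3.35% of all regions. CpG-rich sequence, with at least 55% G+C and an observed to expected CpG ratio of at least 0.6, was rarer still, with 2 members (0.303%) against 2.19% of all regions. The share was 4.47% for both WT_CTCF lists alone, 1.59% for 1 WT_CTCF list alone and 1.67% for regions called in all 4 lists. The median G+C content was 46.8% in members, 45.6% in all regions and 44.75% beside the members. The regions of both MUT_CTCF lists alone had a median of 52.2%. Members lay a median of 17390 bp from the nearest region called in all 4 lists, and all regions 14142 bp.

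The lists of pluripotency and developmental genes took in few regions, so their counts of members are only described. Of 54 regions that touched a naive pluripotency gene or its promoter, 1 was a member. It lay in Esrrb, a nuclear receptor of the naive network, with 57 in WT_CTCF 1 and 22 in MUT_CTCF 1 (chr12:87839524-87840165). None of 13 regions at germ layer regulators and none of 19 at Hox genes was a member, and no region touched a gene of the 2-cell stage list. Of 71 regions at clustered protocadherins, 1 was a member, in Pcdhgc5. Of 58 at olfactory or vomeronasal receptor genes, 1 was a member, at the pseudogene Olfr1174-ps. With lists this short, a share near the 1.15% over all regions gives at most 1 member.

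Among genes of cohesin and its loading and of CTCF, 2 of 34 regions were members, in Ctcf and in Hdac8, which encodes the deacetylase of the cohesin subunit SMC3. Hdac8 scored 114 in WT_CTCF 2 and 86 in MUT_CTCF 2 (chrX:99662835-99663131). Of 41 regions at imprinted genes, 1 was a member, in Airn at the promoter of Igf2r. Airn is the noncoding RNA that silences the paternal Igf2r, and the region scored 46 in MUT_CTCF 1 and had no peak in the other 3 lists (chr17:12964978-12965176). Of 391 regions at genes named Zfp, 6 were members, in Zfp286, Zfp423, Zfp664, Zfp828 and Zfp831 and at the promoter of Zfp119b. That is 1.53% of them, beside 1.15% of all regions. The counts for cohesin and imprinted genes are too small to set beside that share. Predicted genes named Gm were touched by 36 members, 5.45%, and by 5.11% of all regions.

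The promoter of a listed gene was touched by 11 members, 0.812% of the 1354 regions that touched one, beside the 1.15% over all regions. Beside Igf2r and Zfp119b these were Gm11985, Gm13036, Gm15226, Gm11841, Gm16661, Gm15933, Gm16186, Gm3573 and Gm8087. Gm11985 scored 39 and 57 and Gm13036 scored 22 and 47 in the MUT_CTCF libraries, with no WT_CTCF peak. Gm15226 scored 39 in MUT_CTCF 2 alone. Gm11841 scored 107 in WT_CTCF 1 against 92 and 55, and Gm16661, in Mbnl2, scored 105 in WT_CTCF 2 against 37 and 44. In the other 5, each with 1 list of either genotype, the WT_CTCF score was the higher, from 38 against 15 at Gm8087 to 68 against 66 at Gm3573.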

How the data were processed

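CTCF ChIP-seq of WT_CTCF and MUT_CTCF mESCs, with 2 libraries of each, was analysed from 4 peak lists and 1 table. Groups came from the sample titles. The authors trimmed reads with Trim Galore 0.4.4, aligned them to mm9 with Bowtie2 2.3.4.1, removed multiply aligned and duplicate reads, and called peaks per library with MACS2 2.1.1.20160309 on coverage multiplied by Drosophila spike-in factors. The deposited score of a peak is the caller's own value. Its definition and cutoff, and the depth of the libraries, are not given in the sources used here, so precision was limited to counts of regions. The authors joined the peaks, counted reads and scaled them. The deposited mean signal per region, averaged by the authors over the 4 libraries, was used here. The authors' DESeq2 1.38.0 columns in the same table compare the genotypes (fold change on the log2 scale with error and statistic, then raw and adjusted p) and were not used. The number of columns of per-sample values left unused was 0.

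Starts are printed counted from 1. A region was called in a list if at least 1 bp overlapped a peak. A region with several peaks in a list took the highest score. Percentiles rank a peak within its own list. The motif was the 13-base CTCF core consensus, searched on both strands. Genes, promoters and exons came from GENCODE vM1 on NCBIM37, and sequences from that genome. Shares carry exact 95% Clopper-Pearson intervals. Python 3.11.15, numpy 2.4.6, pandas 2.3.3 and scipy 1.17.1 were used, and scripts were tested on simulated data. No test of a difference was run, since the calls chose the members and regions are not replicates. Members and lists were chosen with earlier results of these data known.

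Named regions followed a rule: the 8 highest mean scores in both MUT_CTCF lists alone, the 3 highest per library in 1 MUT_CTCF list alone, the 5 largest score ratios and 3 largest means with both MUT_CTCF lists and 1 WT_CTCF list, the 2 highest mean scores per library pair with 1 list of each, and members at promoters of listed genes. Some regions that the rule or a sequence set takes in are not reported here. Gene lists covered naive pluripotency, germ layer regulators, 2-cell stage, Hox, protocadherin, receptor, Zfp, predicted, cohesin and imprinted genes. Alternatives changed the score floor, overlap, mean, sequences, libraries, mismatches, search window, copy number and promoter definition.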

Additional observations from a re-analysis of the deposited data

How the results depend on the processing

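Of 72 recomputed values, 35 stayed within 1.5 times the count, inside the interval of the share or within the spread between libraries. The other 37 moved beyond that. Only the log2 score ratio has a direction that could turn, and it stayed negative under each of its alternatives. Counts, shares and percentiles could not turn. Using only peaks with a score of at least 250, the median of the pooled lists, left 83 members, of which 1 was among the 661, and 4, 11, 14 and 54 in the classes with both MUT_CTCF lists alone, 1 MUT_CTCF list alone, both MUT_CTCF lists and 1 WT_CTCF list, and 1 list of each. Requiring 50% shared length gave 789 members, 621 of them among the 661. Requiring an authors' mean of at least 50 left 237 members, with 13 in 1 MUT_CTCF list alone and 147 in 1 list of each. Leaving out a library gave 285 to 35559 members, since without a WT_CTCF library the regions called in all 4 lists meet the rule. It gave 37 to 65 regions in both MUT_CTCF lists alone, 70 to 439 in 1 MUT_CTCF list alone, 30333 to 30361 in both MUT_CTCF lists and 1 WT_CTCF list, and 215 to 4864 in 1 list of each. Without a MUT_CTCF library the classes of both MUT_CTCF lists could not be formed.

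With no mismatch the motif share was 5.60% of members, and 6.25%, 3.73%, 5.71% and 6.28% of the classes in the same order. With at most 2 mismatches it was 75.8% of members, 61.5% for 1 MUT_CTCF list alone, 78.6% for both MUT_CTCF lists and 1 WT_CTCF list, and 81.6% for 1 list of each. The promoter share was 9.38% within 1000 bp of a start and 8.47% for protein-coding genes. The multi-copy share was 34.2% where any sampled word had 2 copies and 4.54% at a median of 5 copies. The median G+C within 100 bp of summits was 47.5%. The median percentile of the MUT_CTCF score was 4.61 to 4.79 when a library was left out. The median log2 score ratio was -0.72, or -1.81 from percentiles, and -0.73 to -0.65 when a library was left out. The causes of these shifts were not tested. No paired analysis was possible because the results come from no test. The score's cutoff and the read depth limit what a missing peak shows: a region without a WT_CTCF call may hold signal under the cutoff.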
